A study of Mus musculus with 5 samples.

Results

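Chemokines and their receptors were compared between thymus lacking ZAS3 and wild-type thymus of the mouse. They were chosen by symbol, as every gene called Ccl, Cxcl, Xcl, Cx3cl, Ccr, Cxcr, Xcr, Cx3cr or Ackr followed by a digit, with Ccl19, Ccl21a and Cxcl13 left out. This gave 54 genes of the 16504 that could be named on the array, read by 55 of 18218 probes that carry 1 gene name. They comprised 32 ligands, 18 signalling receptors and 4 atypical receptors. ZAS3, encoded by Hivep3, is a large zinc finger protein known to bind kappaB-like DNA and to act in NF-kB signalling. Each of 5 arrays set RNA of a numbered ZAS3-null thymus against RNA of a wild-type thymus of the same number, all from littermates aged 6 to 8 weeks and paired by sex and age, so there was 1 group of 5 ratios. The labels state neither the deleted part of Hivep3 nor the strain. They speak of whole thymus, while the series design text speaks of thymocytes.

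Chemokines are small secreted proteins named by the spacing of their first cysteines (CC, CXC, XC and CX3C), and they steer cells that carry matching receptors coupled to G proteins. In the thymus, progenitors enter along CCR9 and CCR7 ligands, CXCL12 holds immature thymocytes in the cortex through CXCR4, and ligands of CCR4 and CCR7 draw maturing cells into the medulla. Many other chemokines are inflammatory: NF-kB and interferon signalling switch them on, and they attract monocytes, neutrophils or activated T cells. Atypical receptors bind chemokines without the usual G protein signal, and many of these receptors remove the chemokines.

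Every value below is a log2 ratio of both channels of an array, so it gives a difference and no level, and dim spots could not be told from bright ones. The sign was not settled by the sources, since per the sample labels Cy5 marks ZAS3-null RNA, whereas per the design text Cy3 marks that of the mutants. The titles and the channel order name ZAS3-null first, so a positive ratio most likely means more transcript in ZAS3-null thymus. No array had its dyes swapped, and a dye effect on a probe and an effect of the genotype cannot be told apart. In whole tissue, fewer cells of a type and less RNA per cell cannot be told apart either. Hivep3 itself averaged 0.08 ± 0.07 (SD, n = 5; limma adjusted p = 0.37), which checks nothing, because the deleted part is not given.

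Position on the slide moved with the ratios. Depending on the array, spots in columns 1 to 35 had a median ratio of -0.24 to -0.11, while spots in the last 35 columns had one of 0.12 to 0.25. Means are therefore given as deposited and again after subtraction of a local median (a 21 by 21 window of spots on that array), called corrected below. Values by array are as deposited unless called corrected. Among 48 genes with at least 10 spots each, spots of the same gene had a median SD of 0.18 to 0.23 as deposited, and of 0.09 to 0.11 on arrays 2 to 5 after correction. On array 1 it was 0.18 as deposited and 0.26 after correction, so corrected values of array 1 had the larger spread. A gene was called at an adjusted p under 0.05 in a limma fit of all features against 0.

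As deposited, 11 of the 54 genes were called, 5 positive and 6 negative, against 24.8% of all 16504 named genes (12.0% positive and 12.9% negative). After correction 2 were called, 1 positive and 1 negative, against 2.91% of all named genes (0.612% and 2.30%). The members' shares, 20.4% and 3.70%, were close to those of all genes. At an unadjusted p under 0.05 there were 21 members as deposited and 13 after correction (38.9% and 24.1%), against 40.3% and 27.0% of all named genes. Their median ratio was -0.03 as deposited, where that of all named genes was -0.03 as well, and 0.01 after correction against -0.01. Ligands and receptors did not move as a block: medians were -0.03 and -0.06 as deposited, and -0.02 and -0.01 after correction. Of 32 ligands 3 were positive and 5 negative past the threshold as deposited, and of 18 signalling receptors 1 and 1. Members with a positive ratio on all 5 arrays numbered 7 as deposited (16.7% of all genes) and 11 after correction (11.7%), and those negative on all 5 numbered 11 (20.5%) and 7 (14.5%). Calls followed the slide: in columns 1 to 35, 0 of 20 members were positive and 3 negative (0.278% and 25.6% of genes there). In columns 36 to 70, 1 of 19 was positive and 2 negative (4.45% and 11.6%), and from column 71 on, 4 of 15 were positive and 1 negative (32.2% and 1.18%). Means of single members reached from -0.68 to 0.74.

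**Figure D1:**
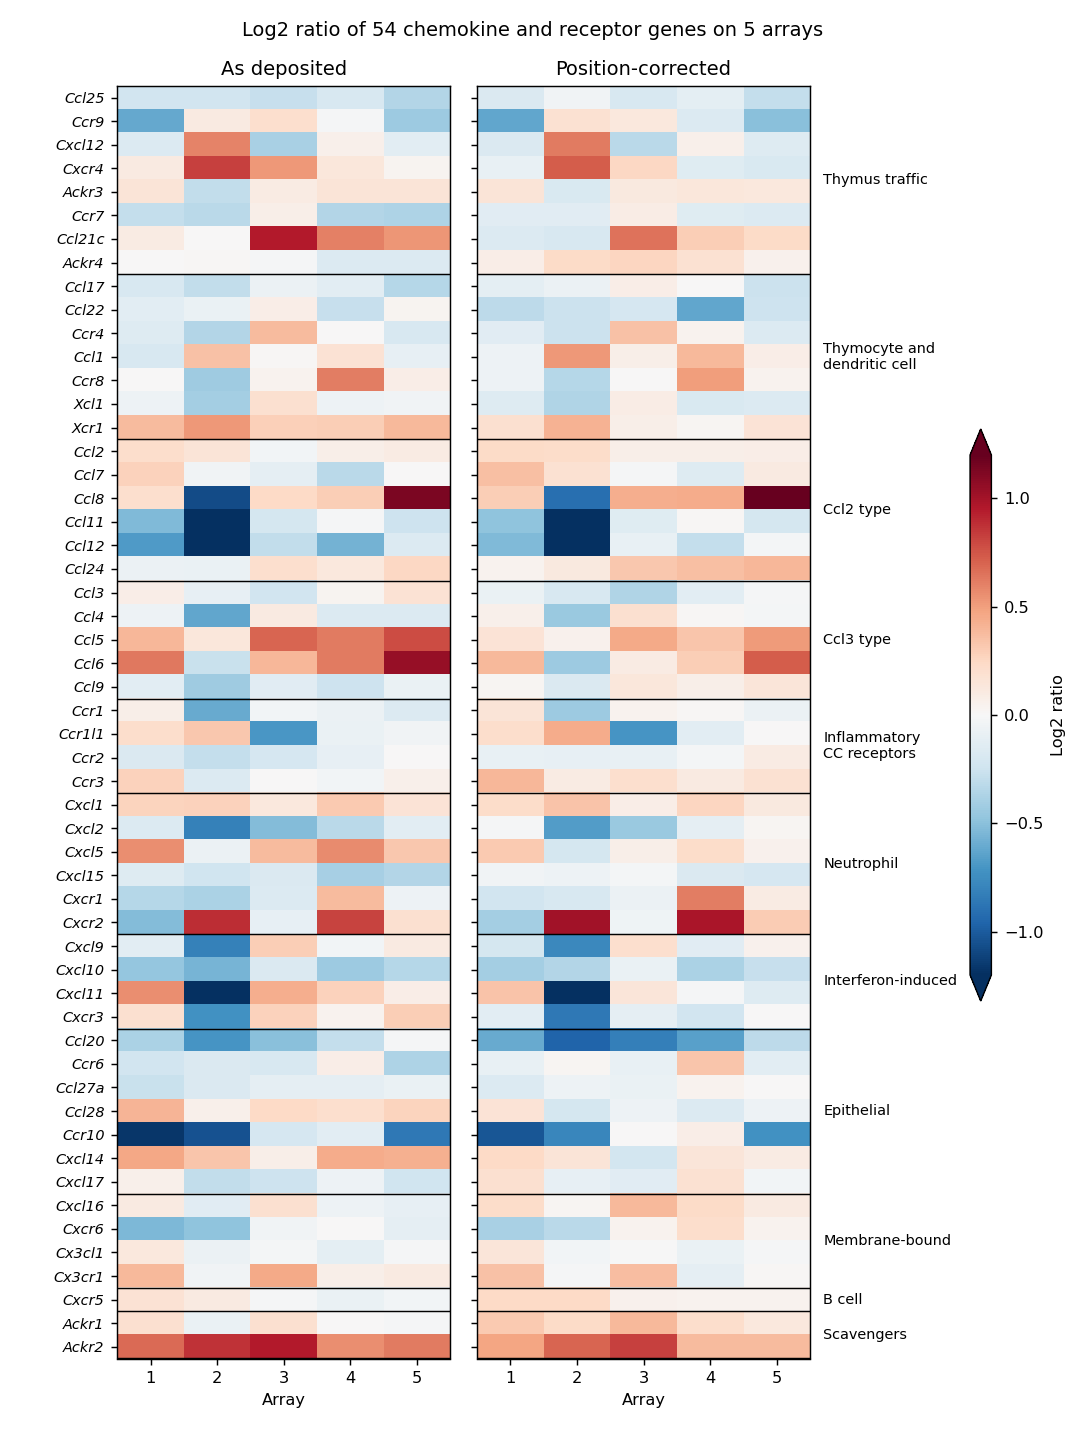
Log2 ratio of each of the 54 genes (rows, grouped by role) on arrays 1 to 5 (columns), as deposited on the left and corrected for slide position on the right. Red is positive, blue is negative, and the colour scale ends at 1.2 in each direction. Ackr2 is red on every array, and Ccl8, Ccl11, Ccl12 and Cxcl11 are deep blue on array 2. Ccl20 is blue on every array after correction, and as deposited on all but array 5, where it is near white (-0.01).

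The 2 genes called both before and after correction were Ackr2 and Ccl20. The 250 bases before their starts are shown with those of Cxcl10, Cxcl1 and Cxcl2, which were called as deposited only. ZAS3 is a kappaB-binding protein, and these 5 genes are shown because their windows hold the kappaB consensus. All are from RefSeq on GRCm38.p6, written 5′ to 3′ on the strand of the gene. Capitals mark matches on either strand to the kappaB consensus and, in Cxcl10, also to GAAANNGAAA (an interferon response element core) and TGANTCA (an AP-1 site).
Ackr2, chr9:121898105-121898354, plus strand: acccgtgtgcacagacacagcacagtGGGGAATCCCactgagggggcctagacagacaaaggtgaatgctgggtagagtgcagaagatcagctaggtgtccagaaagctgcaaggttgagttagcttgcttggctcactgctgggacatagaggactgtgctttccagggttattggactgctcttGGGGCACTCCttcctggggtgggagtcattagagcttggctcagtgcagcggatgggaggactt
Ccl20, chr1:83116516-83116765, plus strand: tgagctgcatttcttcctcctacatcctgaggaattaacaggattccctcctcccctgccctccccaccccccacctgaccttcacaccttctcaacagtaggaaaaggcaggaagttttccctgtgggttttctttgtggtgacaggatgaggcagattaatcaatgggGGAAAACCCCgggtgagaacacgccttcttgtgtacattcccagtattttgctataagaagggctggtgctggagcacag
Cxcl10, chr5:92348890-92349139, minus strand: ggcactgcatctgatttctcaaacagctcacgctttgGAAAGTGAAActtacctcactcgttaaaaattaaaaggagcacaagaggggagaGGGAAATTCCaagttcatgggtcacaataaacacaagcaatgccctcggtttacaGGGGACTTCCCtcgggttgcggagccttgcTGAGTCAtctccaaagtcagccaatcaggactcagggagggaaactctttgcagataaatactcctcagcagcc
Cxcl1, chr5:90890995-90891244, plus strand: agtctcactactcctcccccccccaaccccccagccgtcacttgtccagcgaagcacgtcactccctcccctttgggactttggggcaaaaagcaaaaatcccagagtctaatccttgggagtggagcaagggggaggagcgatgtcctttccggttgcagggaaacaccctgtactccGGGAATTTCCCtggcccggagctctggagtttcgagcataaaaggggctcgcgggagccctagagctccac
Cxcl2, chr5:90903649-90903898, plus strand: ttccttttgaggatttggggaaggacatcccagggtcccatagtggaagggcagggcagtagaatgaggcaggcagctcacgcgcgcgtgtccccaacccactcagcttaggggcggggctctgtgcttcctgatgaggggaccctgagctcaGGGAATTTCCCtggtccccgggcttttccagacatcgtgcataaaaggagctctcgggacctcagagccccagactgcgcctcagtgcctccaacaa

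Of the 54 genes, 40 had an entry in the promoter table, with 44 starts. The kappaB consensus was present before the starts of 10 of these 40 genes, in 10 of 44 windows, and in 7.25% of 32851 windows of the same length. GAAANNGAAA was found for 2 genes, Cxcl10 and Cxcl14 (2.98% of all windows), and TGANTCA for 5 genes (6.75%). In Ackr2 the kappaB matches lay at bases -224 to -215 and -64 to -55 from the start, and in Ccl20 at -80 to -71. Among the 10 genes, as deposited, were ones called positive (Ackr2, Cxcl1), ones called negative (Ccl20, Cxcl2, Cxcl10) and ones not called (Ccl1, Ccl9, Ccr1, Ccr3, Ccr6). After correction only Ackr2 and Ccl20 of them were called. Of the other members called as deposited, Ccl25, Cxcl14, Cxcl15 and Xcr1 had windows without a kappaB match. Ccl5 and Ccr10 had no entry in the promoter table. A match is a string of letters and was not tested for binding.

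Ackr2 encodes the atypical receptor that takes up and degrades inflammatory CC chemokines. Its ratios on arrays 1 to 5 were 0.68, 0.86, 0.96, 0.56 and 0.62. All 5 arrays were well above 0, and the lowest was array 4. The mean was 0.74 ± 0.17 (SD, n = 5; 1.66-fold; limma adjusted p = 0.0035). After correction the arrays had 0.48, 0.70, 0.82, 0.38 and 0.38, with a mean of 0.55 ± 0.20 (adjusted p = 0.0258). The probe lay in column 95, where the local median was itself positive. The corrected call held without array 2 and was lost without array 1, 3, 4 or 5 (adjusted p 0.066 to 0.088).

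Ccl20 encodes the only known chemokine ligand of CCR6 and is made by epithelium, including that of the thymic medulla. Its ratios were -0.38, -0.70, -0.51, -0.29 and -0.01. Arrays 1 to 4 were clearly negative and array 5 was near 0. The mean was -0.38 ± 0.26 (adjusted p = 0.0433). Its probe sat in column 93, where neighbouring spots were positive, so correction made the ratio more negative: -0.605, -0.96, -0.82, -0.65 and -0.31, with a mean of -0.67 ± 0.24 (adjusted p = 0.0203). All 5 corrected values were negative. As deposited the call was lost without any 1 array (adjusted p 0.054 to 0.116) and in a fit that weighted the arrays. The corrected call was lost without array 1, 3 or 4 (up to 0.103). Its receptor gene Ccr6, in column 1, had -0.18 ± 0.16 as deposited and 0.01 ± 0.19 after correction.

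**Figure D2:**
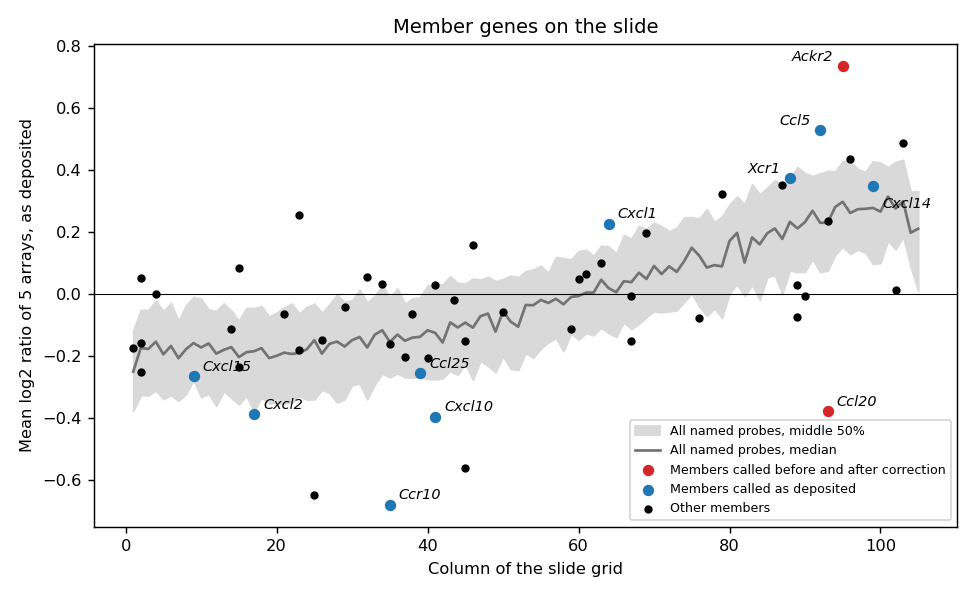
Mean log2 ratio of 5 arrays as deposited (vertical axis) against the column of the slide grid (horizontal axis) for the member genes, with the median and the middle 50% of all named probes per column. The grey median climbs from left to right, Ackr2 lies above it at 0.74 and Ccl20 lies far below it at -0.38 in column 93.

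By the selection rule of the design text, a ratio of at least 1.5-fold on at least 4 arrays, Ackr2 was the only member that qualified as deposited, where 0.866% of all named genes did (0.406% positive and 0.460% negative). After correction the only one was Ccl20, on the negative side, where 0.242% did (0.0485% positive and 0.194% negative). Ackr2 reached only 0.56 on array 4, just short of 1.5-fold. This rule has no p-value.

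The other 9 members called as deposited did not pass after correction. Ccl5, a T cell and monocyte attractant, had 0.40, 0.14, 0.70, 0.62 and 0.78, all positive and lowest on array 2. Its mean was 0.53 ± 0.26 (adjusted p = 0.017), and 0.30 ± 0.19 after correction (adjusted p = 0.0892), with 5 of 5 arrays still positive. The deposited call was lost without array 3, 4 or 5 (adjusted p 0.053 to 0.069), and the corrected value was called without array 2. Xcr1, the receptor of cross-presenting dendritic cells, had 0.38, 0.52, 0.29, 0.30 and 0.39. The arrays were close together, with a mean of 0.37 ± 0.09 (adjusted p = 0.0108), and 0.17 ± 0.15 after correction (adjusted p = 0.192). As deposited the call was lost without array 5 (adjusted p = 0.057). Cxcl14, an epithelial chemokine, had 0.46, 0.33, 0.07, 0.44 and 0.42. Its mean of 0.35 ± 0.16 (adjusted p = 0.024) shrank to 0.08 ± 0.18 after correction, and its probe lay in column 99. The deposited call was lost without array 1, 4 or 5 (adjusted p 0.070 to 0.097).

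Cxcl1 and Cxcl2, both neutrophil attractants that act on CXCR2, had opposite signs. Cxcl1 had 0.26, 0.28, 0.12, 0.31 and 0.16, positive on every array, with a mean of 0.23 ± 0.08 (adjusted p = 0.0377). Its corrected mean was 0.20 ± 0.11 (adjusted p = 0.112), again positive on 5 of 5 arrays. Cxcl2 had -0.16, -0.81, -0.52, -0.32 and -0.12, negative on every array, with a mean of -0.39 ± 0.28 (adjusted p = 0.0492). Its corrected mean was -0.24 ± 0.30 (adjusted p = 0.23). The probes lay in columns 64 and 17. As deposited, either call was lost without any 1 array (adjusted p up to 0.122 for Cxcl1 and 0.128 for Cxcl2).

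Cxcl10, an interferon-induced ligand of CXCR3, had -0.46, -0.56, -0.18, -0.43 and -0.34. All arrays were negative, array 3 least so. The mean was -0.39 ± 0.14 (adjusted p = 0.0138) and -0.30 ± 0.13 after correction (adjusted p = 0.0645), with 5 of 5 arrays negative both times. As deposited the call was lost without array 4 or 5 (adjusted p 0.058 and 0.060). Ccr10, a receptor of skin- and mucosa-homing lymphocytes, had -1.16, -1.05, -0.20, -0.12 and -0.86. Arrays 1, 2 and 5 were strongly negative and arrays 3 and 4 close to 0, which gave -0.68 ± 0.48 (adjusted p = 0.0374) and -0.49 ± 0.50 after correction (adjusted p = 0.144). Its deposited call was lost without array 1, 2 or 5 (adjusted p 0.059 to 0.123). Of its ligand genes, Ccl27a had -0.15 ± 0.07 (corrected -0.05 ± 0.08) and Ccl28 had 0.23 ± 0.13 (corrected -0.07 ± 0.14), and neither was called. Ccl27a has near-identical copies in the mouse genome, so its probe may read more than 1 gene. Cxcl15, best known from lung, had -0.15, -0.24, -0.18, -0.40 and -0.36, negative on every array and most so on arrays 4 and 5. Its mean was -0.26 ± 0.11 (adjusted p = 0.0319) and -0.10 ± 0.08 after correction (adjusted p = 0.317). As deposited the call was lost without array 1, 3, 4 or 5 (adjusted p 0.056 to 0.123).

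**Figure D3:**
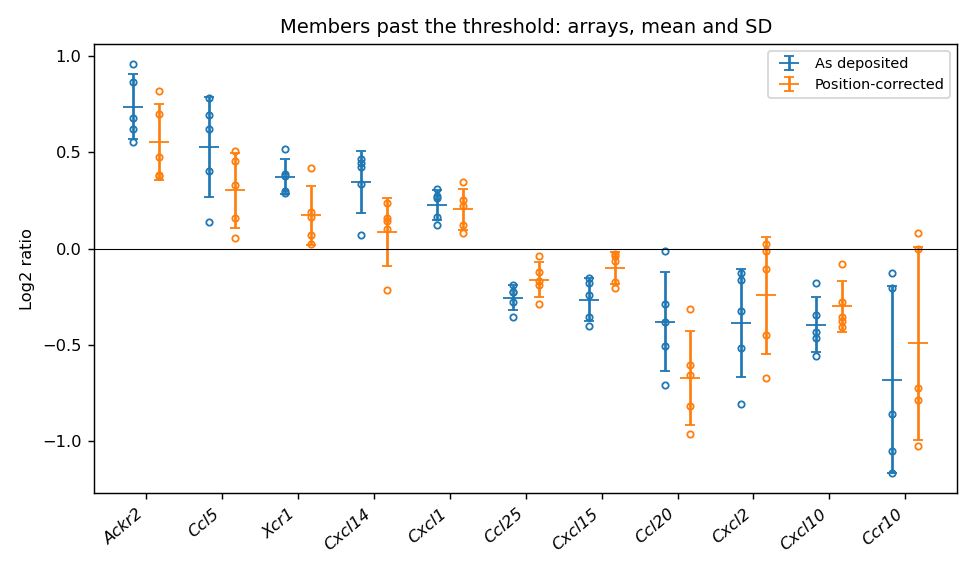
Log2 ratios of the 11 members called as deposited: circles are the 5 arrays, bars the mean and SD, in blue as deposited and in orange after correction for slide position. Xcr1, Cxcl14 and Ccl5 move towards 0 with the correction, and Ccl20 moves away from it, to -0.67.

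The chemokines of normal thymocyte traffic gave 1 call among 8 genes as deposited, where 24.8% of all named genes were called. The unadjusted limma p of 4 (50%) was under 0.05 as deposited, against 40.3% of all genes. After correction limma called 0, and the unadjusted p of 2 (25%) was under 0.05, as it was for 27.0% of all genes. The deposited call was Ccl25, the CCR9 ligand made by cortical epithelium, with -0.23, -0.23, -0.28, -0.19 and -0.36. These 5 values were close together, with a mean of -0.25 ± 0.06 (adjusted p = 0.0245) and -0.16 ± 0.09 after correction (adjusted p = 0.159), negative on 5 of 5 arrays both times. The deposited call was lost without array 1, 3, 4 or 5 (adjusted p 0.059 to 0.107). Ccr9, its receptor on CD4+CD8+ thymocytes, had -0.61, 0.11, 0.20, -0.01 and -0.43. Arrays 1 and 5 were negative, arrays 2 and 3 positive, and the mean was -0.15 ± 0.36 (corrected -0.20 ± 0.36). The 7 CD4+CD8+ thymocyte markers measured had medians of -0.48, 0.00, -0.10, -0.24 and -0.39 on the same arrays, lowest on arrays 1 and 5 too, and their part in the Ccr9 values was not tested.

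Cxcl12 and its receptors varied mostly on array 2. Cxcl12 had -0.16, 0.59, -0.39, 0.06 and -0.12, and Cxcr4 had 0.11, 0.82, 0.52, 0.14 and 0.03. Array 2 was the highest for both. Their means were -0.01 ± 0.37 and 0.32 ± 0.34 (adjusted p = 0.98 and 0.114). After correction they were 0.01 ± 0.37 and 0.11 ± 0.39 (adjusted p = 0.981 and 0.637), and Cxcr4, in column 79, was then negative on arrays 1, 4 and 5. Ackr3, which scavenges CXCL12, had 0.15, -0.30, 0.10, 0.15 and 0.15, with array 2 alone negative, and a mean of 0.05 ± 0.20 (corrected 0.07 ± 0.14). Ccr7, which guides mature thymocytes into the medulla, had -0.29, -0.32, 0.07, -0.36 and -0.37. Array 3 alone was positive, and the mean of -0.25 ± 0.18 did not pass (adjusted p = 0.0695). With 1 array left out it passed only without array 3 (mean -0.33, adjusted p = 0.0278), not without any other array (0.104 to 0.203). Ccr7 was also called as deposited in a fit that weighted the arrays. Its probe lay in column 2, and the corrected mean was -0.10 ± 0.11.

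Ccl21c, a copy of the CCR7 ligand CCL21, had 0.10, 0.00, 0.95, 0.60 and 0.53 (mean 0.44 ± 0.39, adjusted p = 0.073). Arrays 1 and 2 were near 0 and arrays 3, 4 and 5 clearly positive. Its probe lay in column 96, and the corrected mean was 0.16 ± 0.35 (adjusted p = 0.452), with -0.17 and -0.20 on arrays 1 and 2 and positive values on the others. CCL21 genes are near-identical copies, so the probe may read any of them. The related genes Ccl19 and Cxcl13, which are no members, had 1.49 and 1.00 on array 1 and -0.25 and -0.48 on array 2. The 5 lymph node and venule markers measured, both of these included, had medians of 1.00, -0.48, 0.70, 0.34 and 0.62, also lowest on array 2, and their part in the Ccl21c values was not tested. Ackr4, which scavenges CCL19, CCL21 and CCL25, had -0.07 ± 0.09 as deposited and 0.16 ± 0.09 after correction, positive on 5 of 5 corrected arrays without passing.

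Of the ligands of CCR4, Ccl17 had -0.19, -0.30, -0.07, -0.12 and -0.34. All 5 were negative, with a mean of -0.21 ± 0.12 (adjusted p = 0.0664). The corrected mean was -0.07 ± 0.13 (adjusted p = 0.511), negative on 3 of 5 arrays. Ccl22 had -0.12, -0.08, 0.08, -0.28 and 0.03, around 0. Its probe lay in column 89, and the corrected mean was -0.33 ± 0.17 (adjusted p = 0.0665), negative on 5 of 5 arrays. Ccr4 had -0.06 ± 0.28 (corrected -0.03 ± 0.24). Xcl1, the ligand of Xcr1 made by medullary epithelium and T cells, had -0.08 ± 0.21 (corrected -0.16 ± 0.16). The 5 dendritic cell markers measured, Xcr1 included, had 2 positive calls as deposited, where 12.0% of all genes did. After correction limma called 0, and the unadjusted p of 1 (20%) was under 0.05, as it was for 27.0% of all genes. Their array medians ran from -0.07 to 0.30.

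Array 2 held the lowest ratio of many members. Of the 54 genes, 29 had their lowest ratio on array 2 (53.7%), against 35.5% of all named genes. After correction these were 23 of 54 (42.6%) against 27.8%. The 4 interferon-induced genes had a median of -0.77 on array 2 and of 0.03, 0.29, 0.01 and 0.10 on arrays 1, 3, 4 and 5. The 6 monocyte and eosinophil attractants related to Ccl2 had -0.58 on array 2 and 0.07, -0.07, 0.03 and 0.05 on those arrays. The 5 genes of the Ccl3 type had -0.26 on array 2 and 0.08, 0.11, 0.03 and 0.18 on those arrays. The 4 inflammatory CC receptors had -0.23 on array 2 and 0.14, -0.12, -0.08 and -0.02 on those arrays. After correction these receptors had 0.0008 on array 2 and 0.18, -0.02, -0.007 and 0.05 on those arrays. Array 2 was then not their lowest. It stayed the lowest after correction for the interferon-induced genes (-0.81), the Ccl2 relatives (-0.39) and the Ccl3 type (-0.20). The 7 genes of thymocyte and dendritic cell exchange had -0.30 on array 2 and -0.12, 0.08, 0.00 and -0.04 elsewhere. The 8 genes of normal thymocyte traffic had 0.01 on array 2 and -0.08, 0.08, 0.02 and -0.14 elsewhere. Whether the pattern follows inflammatory roles was not tested. The 6 neutrophil attractants and receptors had -0.15 on array 2 and -0.16 on array 1. These are single values of 1 array and carry no test.

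Among the Ccl2 relatives, Ccl11 (eotaxin, an eosinophil attractant) had -0.53, -1.79, -0.21, -0.01 and -0.25. Ccl12, a monocyte attractant, had -0.68, -1.53, -0.30, -0.57 and -0.16. Both were negative on every array, by far the most on array 2. Ccl12 averaged -0.65 ± 0.53 (adjusted p = 0.0548) and -0.45 ± 0.53 after correction (adjusted p = 0.183). As deposited it passed without array 2 (mean -0.43, adjusted p = 0.0275) and not without any other array (0.081 to 0.131), and its corrected mean without array 2 was -0.23. Ccl11 averaged -0.56 ± 0.71 (adjusted p = 0.153) and -0.49 ± 0.66 after correction. Ccl8 had 0.20, -1.08, 0.24, 0.30 and 1.13, so that array 2 was negative and the other arrays positive, with a mean of 0.16 ± 0.79 (corrected 0.30 ± 0.76). Ccl2 itself, the main ligand of CCR2, had 0.10 ± 0.09 (corrected 0.13 ± 0.08). Ccl7 had -0.04 ± 0.22 (corrected 0.10 ± 0.20) and Ccl24 had 0.08 ± 0.15 (corrected 0.25 ± 0.16). Ccr2 had -0.15 ± 0.11 (corrected -0.04 ± 0.08) and Ccr3, the eotaxin receptor, 0.03 ± 0.16 (corrected 0.20 ± 0.12). None of these was called in either fit with limma. In the deposited fit, the unadjusted p of 1 of the 6 attractants (16.7%) was under 0.05, as it was for 40.3% of all genes.

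The interferon-induced ligands showed the same contrast between arrays. Cxcl9 had -0.12, -0.82, 0.30, -0.03 and 0.11, and Cxcl11 had 0.56, -1.21, 0.43, 0.28 and 0.08. Cxcr3, their receptor on activated T cells and natural killer cells, had 0.19, -0.73, 0.28, 0.04 and 0.30. In all 3 genes array 2 was the lowest by a wide margin, and their means (-0.11, 0.03 and 0.01) were not called. After correction the means were -0.17 ± 0.37, -0.20 ± 0.65 and -0.26 ± 0.34. Cxcl10, the fourth gene, was negative on all arrays as given above. As deposited, Cxcl11 was called positive without array 2 (mean 0.34, adjusted p = 0.040), and its mean was negative without array 1, 3 or 4. Its corrected mean without array 2 was 0.08.

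In the Ccl3 type, Ccl6, a monocyte attractant, had 0.63, -0.26, 0.40, 0.62 and 1.05. Array 2 alone was negative, the mean was 0.49 ± 0.48 (adjusted p = 0.0891), and without array 2 it was 0.68 (adjusted p = 0.0113). Without any other array it did not pass (0.166 to 0.229). Its probe lay in column 103, and the corrected mean was 0.21 ± 0.43 (adjusted p = 0.403). Ccl3 and Ccl4, both attractants of monocytes and T cells, had -0.01 ± 0.16 and -0.18 ± 0.27, and Ccl9 had -0.20 ± 0.14. Their corrected means were -0.15 ± 0.13, -0.04 ± 0.24 and 0.04 ± 0.13. On array 2 the 6 endothelial markers had a median of -0.47 (-0.12 to -0.05 on the others) and the 2 erythroid markers 1.63 (-0.53 to 0.49). The 4 macrophage markers had -0.17 there, against -0.06 to 0.17. The part of these cells in the array 2 values was not tested.

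**Figure D4:**
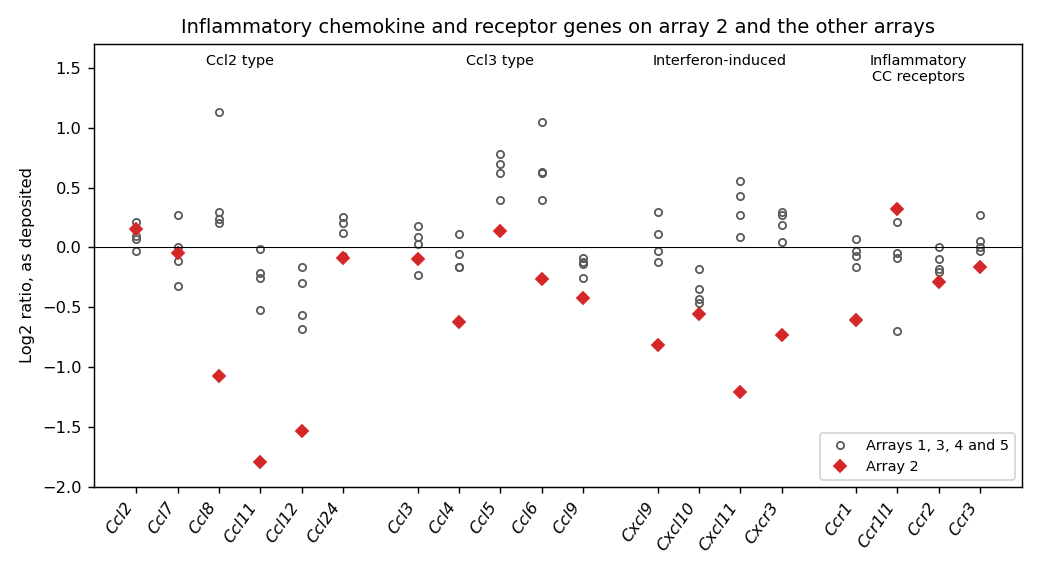
Log2 ratio as deposited of inflammatory chemokine and receptor genes, with array 2 as red diamonds and the other 4 arrays as open circles. Ccl8, Ccl11, Ccl12, Cxcl9, Cxcl11 and Cxcr3 have their diamond below -0.7, under every other array, while Ccl2, Ccl3, Ccl7 and Ccr1l1 do not have array 2 at the bottom.

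Receptors of neutrophils differed between arrays in another way. Cxcr2, the receptor of Cxcl1, Cxcl2 and Cxcl5, had -0.52, 0.89, -0.10, 0.82 and 0.19, with arrays 2 and 4 high and array 1 low. Its mean was 0.26 ± 0.60 (corrected 0.37 ± 0.63). Cxcr1, its neighbour in the genome, had -0.34, -0.38, -0.16, 0.38 and -0.06, with array 4 alone positive, and a mean of -0.11 ± 0.30 (corrected 0.04 ± 0.34). Of 5 neutrophil markers 1 was negative past the threshold as deposited, where 12.9% of all genes were, and their array medians ran from -0.77 on array 4 to 0.10 on array 5. Cxcl5 had 0.35 ± 0.26 (adjusted p = 0.054), in column 87, and 0.09 ± 0.20 after correction. Ackr1, which binds inflammatory chemokines on red cells and venules, had 0.06 ± 0.13 as deposited. After correction it had 0.25 ± 0.10, positive on 5 of 5 arrays (adjusted p = 0.0736).

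Of the membrane-bound ligands, Cx3cl1 (fractalkine) was the only member with 2 probes. The probe in column 78 had a mean of 0.17 ± 0.09 and the probe in column 9 had -0.21 ± 0.21, so the signs differed as deposited. After correction they had 0.02 ± 0.12 and -0.02 ± 0.18. The gene had 0.13, -0.07, -0.02, -0.12 and -0.01, with array 1 alone positive. It averaged -0.02 ± 0.09 (corrected 0.0031 ± 0.09), and its receptor gene Cx3cr1, a marker of monocytes and macrophages, 0.20 ± 0.21 (corrected 0.12 ± 0.22). Cxcl16 had 0.00 ± 0.14 as deposited and 0.19 ± 0.14 after correction, positive on 5 of 5 corrected arrays, and its receptor gene Cxcr6 had -0.24 ± 0.26 (corrected -0.08 ± 0.26). The remaining members Ccl1, Ccr1, Ccr1l1, Ccr8, Cxcl17 and Cxcr5 had means from -0.16 to 0.06 (corrected -0.06 to 0.20), and none was called in either fit.

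Many of these genes lie side by side, and 32 of the 54 fell into 8 neighbourhoods with starts under 1 Mb apart. Signs as deposited were mixed in 6 of the 8, the exceptions being Ccl22, Cx3cl1 and Ccl17 (all negative) and Cx3cr1 and Ccr8 (both positive), where none was called. On chromosome 11, the group of Ccl2, Ccl7, Ccl11, Ccl12, Ccl8 and Ccl1 had 3 positive and 3 negative means as deposited. Its neighbour group of Ccl5, Ccl9, Ccl6, Ccl3 and Ccl4 had 2 and 3. On chromosome 5, Cxcl1 and Cxcl2 are adjacent members with opposite calls as deposited, and neither was called after correction. The only neighbourhood with every corrected mean negative was that of Cxcl9, Cxcl10 and Cxcl11 on chromosome 5 (-0.17, -0.30 and -0.20). Without array 2 these corrected means were -0.02, -0.28 and 0.08. Every corrected mean was positive for Cxcr2 and Cxcr1, and for Cx3cr1 and Ccr8. On chromosome 9, the 7 receptor genes from Ccr9 to Ccr2 had a median of -0.15 as deposited and -0.04 after correction. Xcr1 was the only one called, and as deposited only.

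**Figure D5:**
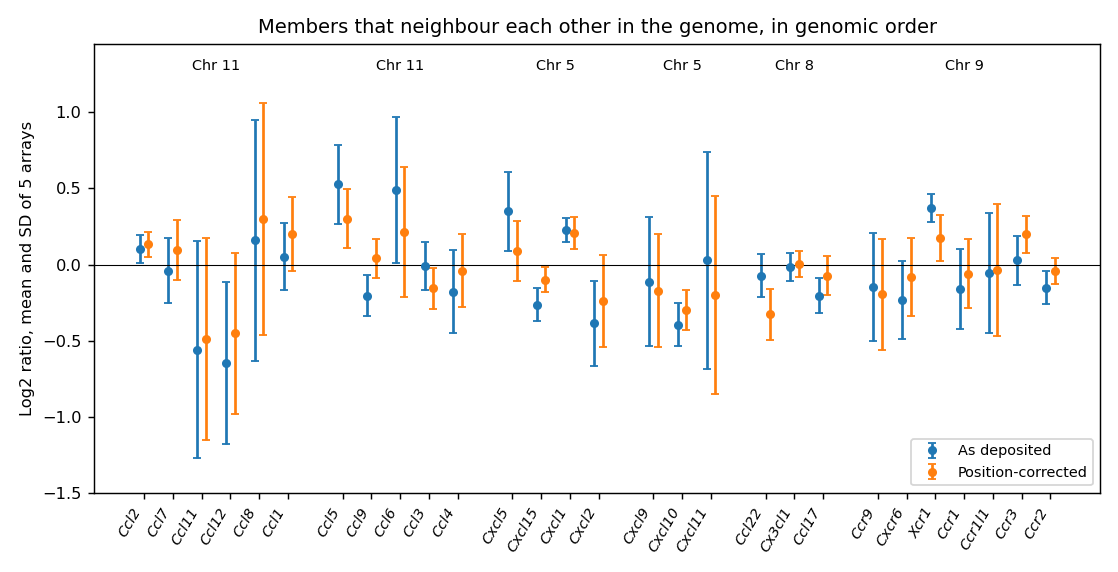
Mean log2 ratio with SD over 5 arrays for members that lie within 1 Mb of each other, in genomic order by chromosome, for neighbourhoods of at least 3 members (blue as deposited, orange after correction). Signs are mixed within the groups of chromosome 11, and the error bars of Ccl8, Ccl11, Ccl12 and Cxcl11 are the widest.

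Genes that belong to the family or its pathway under other names were taken from a list made for this family. Of 16 such genes, 2 were positive and 2 negative past the threshold as deposited, where 12.0% and 12.9% of all genes were. After correction limma called 0, and the unadjusted p of 5 (31.2%) was under 0.05, as it was for 27.0% of all genes. They included Mif, which also binds CXCR2 and CXCR4 (0.78 ± 0.26, corrected 0.47 ± 0.24, adjusted p = 0.0511). Dpp4, a protease that trims chemokines, had -0.37 ± 0.10 (adjusted p = 0.0117) and -0.23 ± 0.13 after correction. Of 35 genes of signalling below chemokine receptors, 2 were positive and 6 negative as deposited, against 12.0% and 12.9% of all genes, and 1 and 2 after correction, against 0.612% and 2.30%. For Gnai1, which encodes a Gi alpha subunit of the kind these receptors use, the means were 0.51 ± 0.05 and 0.57 ± 0.07 after correction (adjusted p = 0.0035 and 0.003). The other Gi alpha genes of the list, Gnai2 and Gnai3, had -0.03 ± 0.22 and -0.07 ± 0.21. Their corrected means were -0.18 ± 0.18 and -0.26 ± 0.24, and neither was called. Vav1, a Rac exchange factor, had -0.71 ± 0.16 and -0.58 ± 0.15 (adjusted p = 0.0037 and 0.0098). Prex1, a Rac exchange factor driven by G protein beta-gamma subunits, had -0.14 ± 0.16 as deposited and -0.41 ± 0.13 after correction (adjusted p = 0.212 and 0.0331). The medians of both lists, 0.01 and -0.07 as deposited, lay near the -0.03 of all genes.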

How the data were processed

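Per the labels, thymus RNA of both genotypes was hybridised together on 2-colour arrays, which the design text names as Agilent mouse oligonucleotide arrays. It gives GenePix for image reading, and global lowess without dim, flagged spots in GeneTraffic 2.6. The deposited values are log2 ratios made by the authors, 1 column per array. The base was settled from the values: within 0.0001, 100% were the log2 of a fold with 2 decimals, against 10.6% for log10. Spot intensities were not analysed here.

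Probe numbers of the value table and of the platform annotation run across the slide (215 by 105 spots) with rows and columns exchanged, and genes were named in the exchanged order. Under it 0 of 256 spots below -1.5 on every array fell on a probe with a gene, against 215 under the deposited numbers. For 48 genes with at least 10 spots, the SD between spots of a gene after correction was 0.09 to 0.26, against 0.23 to 0.45. Over 1387 pairs of probes of a gene, mean ratios correlated at only 0.11 (0.03 under the deposited numbers), so a ratio read by 1 probe needs caution. The reason for this low value was not tested. The reference gene table held 18175 of the 18218 singly named probes. Several genes were given for 16 probes and none for 4341.

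Probes of a gene were averaged, and all 20861 features were fitted against 0 (limma 3.58.1, R 4.3.3, Benjamini-Hochberg). No value was missing. Steps were tested on simulated data. Values are mean ± SD of 5 arrays. The labels call the hybridisations independent but do not say that each used other mice, so p-values measure the spread between arrays, whose number limits the precision. Named by rule were members called in either fit, those with a known part in thymus traffic, the 3 highest and lowest means of each fit and members with several probes. Others were named after their values were seen. The members, the role groups and the lists were chosen with earlier results of these data known. Alternatives were centring, scaling, robust and weighted fits, single probes, deposited numbers, other thresholds, windows and folds, and each array left out.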

Additional observations from a re-analysis of the deposited data

Results flagged for a closer look

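In 5 of the 54 members 1 array lay far from the other 4, by the gap to the nearest array as a share of the whole range. Among 5 normally distributed values of equal spread, chance sets apart about 1 group in 20. The arrays differed in spread, as given below, so the count cannot be read against that rate. The share over all named genes is not given here. Ackr3 had -0.30 on array 2, against 0.10 to 0.15 on the others. Ccl11 had -1.79 on array 2, against -0.53 to -0.01. Cxcl11 had -1.21 on array 2, against 0.08 to 0.56. Cxcr3 had -0.73 on array 2, against 0.04 to 0.30. Ccr7 had 0.0704 on array 3, against -0.37 to -0.29. Array 2 was the one set apart in 4 of these 5 genes, and it also had the largest SD across members, 0.54, where the other arrays had 0.30 to 0.36. Across all named genes its SD was 0.49, against 0.29 to 0.36.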

How the results depend on the processing

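As deposited, the 11 called members became 14 with centring or a common spread, 11 with robust eBayes or single probes and 13 under the deposited numbers, which put other genes under these names. They became 17 with array weights, Ccl20 not among them, and 2 after position correction. They were 1 at a threshold of 0.01 and 19 at 0.1, and 1 to 13 with an array left out (without array 5 and array 2). Without arrays 1, 3 and 4 they were 4, 6 and 3. Ackr2 was called in each of these 5 fits. The 2 corrected calls stayed 2, both Ackr2 and Ccl20, with centring, a common spread, robust eBayes, windows of 11 or 41 spots, and column and row medians. They became 7 with array weights, 1 under the deposited numbers, 0 at 0.01 and 6 at 0.1, and 0 to 3 with an array left out. They were 0 without array 1, 3 or 4 and 1 without array 5. The 1 member past the 1.5-fold rule became 0 at a fold of 2 or with all 5 arrays required, 3 at a fold of 1.3, and 1 to 3 with an array left out. Means of members called as deposited were taken with position correction, column and row medians, median centring, a common spread and an array left out. None changed sign. Each of these members had the same sign on all 5 arrays, so a common spread or an array left out could not change it. Median centring shifted an array by at most 0.0841, less than the smallest of these means in size (0.23).

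Uncalled means changed sign after position correction for Ackr4 (0.16), Ccl28 (-0.066), Ccl7 (0.10), Ccl9 (0.041), Ccr6 (0.013), Cx3cl1 (0.0031), Cxcl11 (-0.20), Cxcl12 (0.0059), Cxcl17 (0.020), Cxcr1 (0.044) and Cxcr3 (-0.26). With column and row medians Ackr4 had 0.21, Ccl28 -0.018, Ccl7 0.10, Ccl9 0.011, Ccr6 0.088, Cx3cl1 0.0055, Cxcl11 -0.18, Cxcl12 0.013, Cxcr1 0.063 and Cxcr3 -0.21. With median centring Ccl3 had 0.013, Cx3cl1 0.0017 and Cxcl12 0.014. With an array left out the signs of 16 uncalled members changed, with ranges of -0.024 to 0.11 for Ccl1, -0.053 to 0.048 for Ccl3, -0.12 to 0.030 for Ccl7, -0.085 to 0.47 for Ccl8, -0.15 to 0.10 for Ccr1l1, -0.034 to 0.076 for Ccr3, -0.17 to 0.0097 for Ccr4, -0.074 to 0.19 for Ccr8, -0.055 to 0.0066 for Cx3cl1, -0.10 to 0.34 for Cxcl11, -0.16 to 0.091 for Cxcl12, -0.045 to 0.036 for Cxcl16, -0.21 to 0.064 for Cxcl9, -0.056 to 0.20 for Cxcr3, -0.0040 to 0.061 for Cxcr5 and -0.14 to 0.0083 for Xcl1. The cause was not tested. No paired analysis was possible because each array already holds 1 ratio of a pair and there is a single group. Signal over background was not analysed here.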
